A study of Homo sapiens with 6 samples.

Results

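Chromosome 18 is the autosome with the fewest protein-coding gene starts per megabase in these maps, and it was followed here along its whole length in 4 cancer cell lines. Its members were all 40-kb bins of chromosome 18 in the bin list of the files (build hg19), which is 1952 of the 75918 bins of chromosomes 1 to 22 and X, together with every bin pair listed within the chromosome. The short arm, 18p, held 385 bins and the long arm, 18q, held 1489. The remaining bins lie in the centromere gap, chr18:15410899-18510898. A bin was used where its coverage was at least 0.25 of the autosomal median in all 4 lines, which left 343 bins on 18p and 1412 on 18q, of 64931 usable bins in the series. The chromosome held 266 protein-coding genes (66 on 18p and 200 on 18q). Those that start in usable bins came to 3.56 starts per Mb of these bins, the lowest value of 22 autosomes, against a median of 6.64. GC content was 39.6%, against a median of 40.8% over autosomes.

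The lines were SW480 and SNU-C1, both from colon cancer, HCC1954, from breast cancer, and OE33, from an esophageal adenocarcinoma. The labels name no treatment and no genetic change made to the lines. Each is 1 established line, so it stands for its own karyotype and not for its tumor type. Contacts were measured by in situ Hi-C, which cuts chromatin with the enzyme MboI, joins DNA ends that lie close together in the nucleus and counts the joined pairs by sequencing. SNU-C1, HCC1954 and OE33 each have 1 map, whereas SW480 has a pooled map and the maps of its replicates 1 and 2. No p-value is therefore given for any comparison between lines, and the difference between the SW480 replicates is the only measure of experimental spread.

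On chromosome 18, 2736155 read pairs were recovered from the SW480 map (1355247 and 1380618 in its replicates), 1951181 from SNU-C1, 1663986 from HCC1954 and 1223931 from OE33. These were 2.05%, 1.70%, 1.78% and 1.37% of the read pairs within chromosomes. Of 544495 bin pairs, 99.97% held the sum of both replicates in the SW480 map, which is therefore taken as the pool and adds no sample. One property of the files bears on every contrast of SW480 with the others. The corrected values of a chromosome 18 bin in SW480 summed to nearly the same total (coefficient of variation 1.74%), and that total differed between chromosomes, from 0.739 to 1.35 of the autosomal median. In SNU-C1, HCC1954 and OE33, whose maps also hold pairs between chromosomes, the coefficient of variation was 6.54%, 12.4% and 15.2%, and the totals ranged from 0.857 to 1.14, from 0.786 to 1.09 and from 0.703 to 1.14. How far this difference in balancing enters the values below was not tested beyond the settings named beside them.

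The long arm carries SMAD4, the shared mediator of TGF-beta and BMP signalling, its receptor-regulated partner SMAD2, the inhibitory SMAD7, and DCC, a netrin receptor. Loss of 18q is a well-known event of colorectal and esophageal adenocarcinoma. Hi-C maps show genome folding at several levels. Gene-rich, active chromatin (compartment A) and gene-poor, inactive chromatin (compartment B) each prefer their own kind, and within them topologically associating domains are separated by insulating boundaries, many of which are bound by the architectural protein CTCF.

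The strongest boundaries that all 4 lines shared serve as landmarks of the chromosome in what follows, so the sequence of the CTCF motif match nearest to each is shown first. The search covered both strands of the boundary bin and, where that held no match, of the bins next to it. Capitals mark the core that matched and lower case its flanks; all sequences are GRCh37 (hg19), minus strand, 5′ to 3′.
Boundary at 28.48 Mb, match at chr18:28551510-28551539: aagaaatggCCACTAGATGGCaatatatat
Boundary at 61.64 Mb, match at chr18:61662205-61662234, within SERPINB8: ctagatcgtCCAGTAGAGGGCgccggatag
Boundary at 8.56 Mb, match at chr18:8529888-8529917: gggtgtgatCCAGCAGGTGGCacttaggct
Boundary at 4.0 Mb, match at chr18:3998921-3998950, within DLGAP1: cctgtctgtCCAGTAGGTGGCagaacagca
The boundary at 54.28 Mb, between TXNL1 and WDR7, held no match in these windows. A match is a description of letters, since no binding was measured. It was present in 11.6% of the usable bins of chromosome 18 and in 13.4% of those of all autosomes. These shares are for single bins, whereas all matches shown but that at 61.64 Mb lay in a bin next to the boundary bin. A share for the wider search was not computed.

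First, the coverage of each arm was compared. The iterative correction removes coverage from a Hi-C map, so it was recovered from the corrected values as read pairs within the chromosome per bin, divided by the autosomal median of the same map. A value of 1 is thus the typical autosomal level of that line and not a copy number. In such bulk maps, fewer copies of a region and fewer read pairs per copy cannot be told apart. 18q lay below the autosomal median in all 4 lines. Its median coverage was 0.712 in SW480 (0.714 and 0.711 in the replicates; quartiles over bins 0.605 and 0.867), 0.685 in SNU-C1 (0.612 and 0.770), 0.651 in HCC1954 (0.456 and 0.917) and 0.526 in OE33 (0.463 and 0.606).

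18p set the lines apart. Its median coverage was 0.97 in SW480 (0.968 and 0.969 in the replicates), whereas HCC1954 had 0.763, SNU-C1 0.583 and OE33 0.486. The quartiles over bins of SW480 (0.803 to 1.18) did not overlap those of SNU-C1 (0.518 to 0.665) or of OE33 (0.419 to 0.566), whereas HCC1954 spanned 0.592 to 1.08. The 2 colorectal lines therefore differed most on 18p: SW480 had 18p near the autosomal median and low 18q, and SNU-C1 was low on both arms. The log2 ratio of 18q to 18p was -0.45 in SW480 (-0.44 and -0.45 in the replicates), -0.23 in HCC1954, 0.11 in OE33 and 0.23 in SNU-C1. Relative to the median of the other 3 lines these ratios were -0.56 (-0.55 and -0.56), -0.34, 0.34 and 0.46, in the same order of lines. By this subtraction the 2 lower lines are always negative and the 2 higher always positive. HCC1954 and OE33 thereby hold the same difference with opposite signs. The replicates of SW480 differed by far less than any pair of lines.

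GC content and the number of MboI sites also affect Hi-C coverage, so the arms were compared with the level that these predict for each bin from the autosomes of the same map. Of 39 autosomal arms, 18q ranked 2nd from the lowest in SW480 (0.707 of the prediction), 4th in SNU-C1 (0.652), 3rd in HCC1954 (0.638) and 4th in OE33 (0.560). 18p was the lowest of 39 arms in OE33 (0.476) and the 2nd lowest in SNU-C1 (0.560). It ranked 12th in HCC1954 (0.776) and 16th in SW480 (0.92). Low 18q was thus found in all 4 lines and low 18p in SNU-C1 and OE33.

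Compartment moved with coverage. The median coverage over prediction of A blocks (200 kb) was 1.88 times that of B blocks on chromosome 18 in HCC1954, 1.30 times in SW480, 1.21 times in SNU-C1 and 1.14 times in OE33. On the other autosomes the factors were 1.37, 1.17, 1.12 and 1.08. Taking only the 107 blocks that were A in all 4 lines, 18q over 18p relative to the other lines was -0.66 in SW480, -0.33 in HCC1954, 0.33 in OE33 and 0.34 in SNU-C1 on the log2 scale. Taking only the 160 blocks that were B in all 4 lines, it was -0.53, -0.36, 0.36 and 0.44. SW480 and HCC1954 were therefore the lower lines, and OE33 and SNU-C1 the higher, within each compartment as over all blocks. The value of SNU-C1 was smaller in the A blocks.

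**Figure D1:**
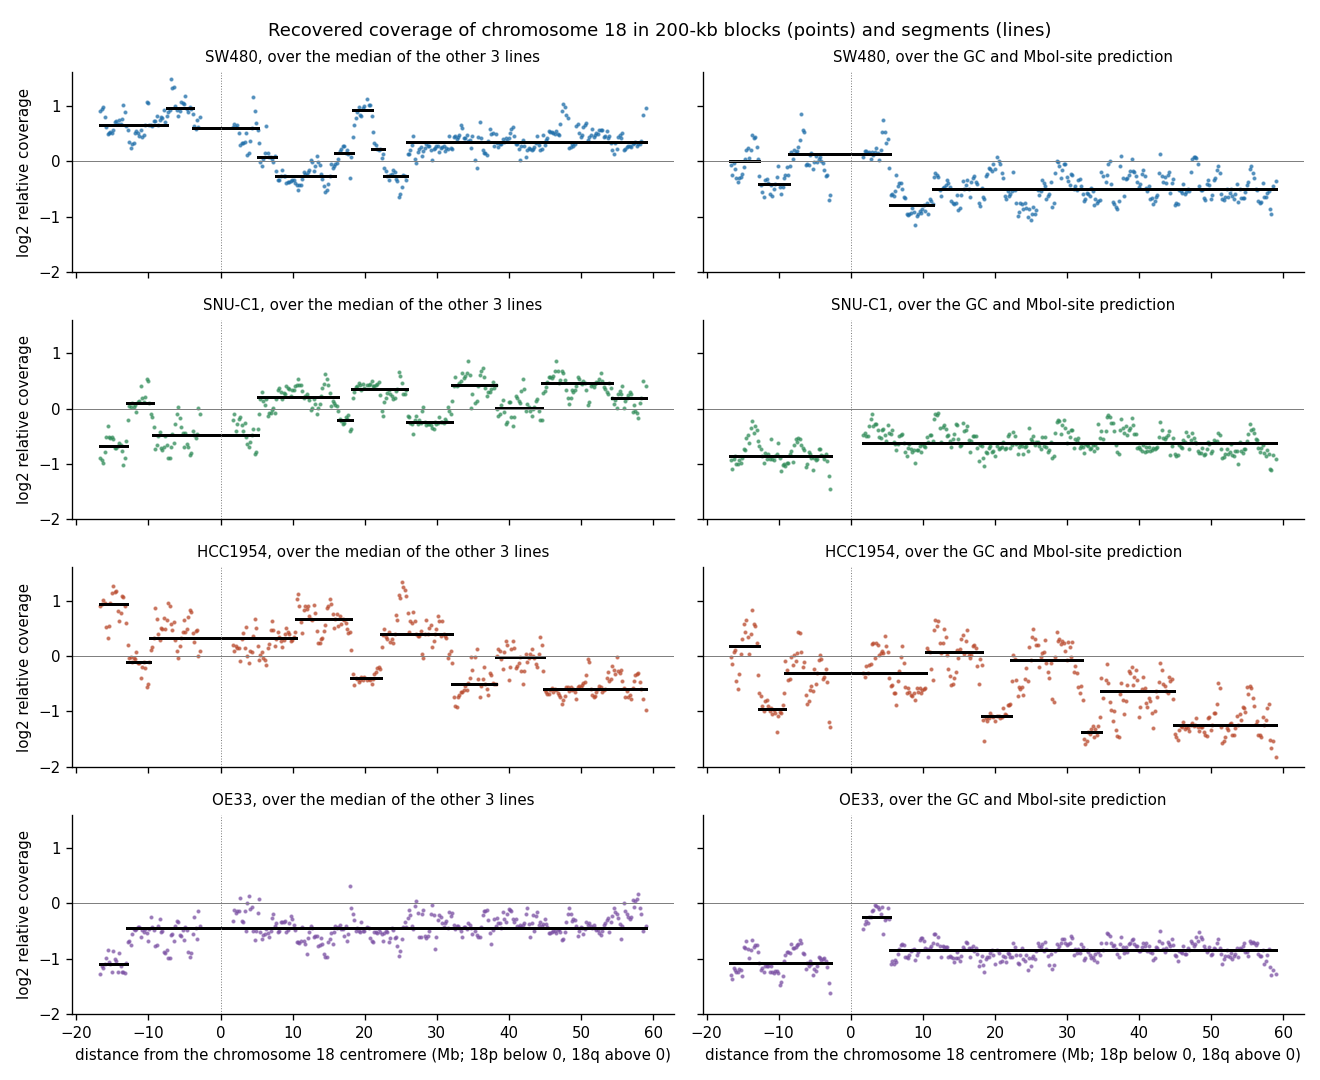
Log2 relative coverage of 200-kb blocks (points) along chromosome 18 against distance from the centromere (Mb) and the median of each segment (lines), over the median of the other 3 lines (left) and over the GC and MboI-site prediction (right), for the 4 lines (rows). In the right column SW480 drops beyond the start of 18q, HCC1954 alternates between high and low segments, and SNU-C1 has 1 segment on each arm.

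Next, the edges of coverage segments were located. Against the other lines the segmentation gave 16 edges on chromosome 18, of which 6 were credited to SW480, 3 to SNU-C1, 7 to HCC1954 and 0 to OE33. An edge is credited to the line with the largest step, and 1 line's edge can appear in the others because each serves as their reference. Against the GC and MboI-site prediction, which uses no other line, there were 12 edges, of which 8 were credited to HCC1954, 3 to SW480, 1 to OE33 and 0 to SNU-C1. When the relation of coverage to the compartment value on the other autosomes was also taken out, there were 7 edges, 5 credited to HCC1954 and 2 to OE33.

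The clearest feature of SW480 was a drop shortly after the start of 18q. Its coverage was 1.37 over the 2 Mb before 22.2 Mb and 0.756 over the 2 Mb after it (1.37 to 0.752 and 1.37 to 0.759 in the replicates). Coverage also fell in OE33, from 0.975 to 0.496, a larger log2 step than in SW480 (-0.976 against -0.861). It fell in HCC1954 from 1.09 to 0.711, whereas SNU-C1 went from 0.771 to 0.745. Which line the edge was credited to depended on the reference: against the other lines it was SNU-C1 (a step of 0.68 on the log2 scale), against the prediction it was SW480 (-0.91 at 22.4 Mb) and, with the compartment relation taken out, OE33 (-0.57), with SW480 sharing the edge. In this last profile SW480 was a chromosome of 2 levels only, 0.968 of the prediction from 18p to 22.4 Mb and 0.713 from there to the end of 18q. Compartment differed between lines at this place. The blocks at 22.2 to 22.8 Mb were A in SW480 and SNU-C1 and B in HCC1954 and OE33, except that the block at 22.6 Mb was near 0 in SW480 (0.09 and -0.03 in the replicates). In blocks that were A in all 4 lines, SW480 coverage was 1.21 on 18p, 1.26 on 18q up to 22.2 Mb and 0.842 beyond it (1.2, 1.27 and 0.836 in replicate 1, and 1.21, 1.25 and 0.841 in replicate 2). In the same blocks SNU-C1 had 0.651, 0.781 and 0.719, HCC1954 had 1.07, 1.05 and 0.862, and OE33 had 0.557, 0.908 and 0.601. SW480 and HCC1954 thus kept the level of 18p into the start of 18q and were lower beyond it. OE33 was higher at the start of 18q than on either side.

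Against the prediction, HCC1954 had the most segments of the 4 lines. Against the other lines SNU-C1 had 10 edges, SW480 9 and HCC1954 8 before edges were credited, and with 400-kb blocks or a penalty 2 times as high 4 edges were credited to SW480 and 3 to HCC1954. HCC1954 coverage fell across 4.0 Mb on 18p, within DLGAP1 (a scaffold protein of the postsynaptic density), from 1.51 to 0.581, a step of -1.04 (log2) against the other lines and -1.13 against the prediction. It rose near PTPRM, a receptor-type phosphatase, at 7.8 Mb by 0.65 (against the prediction). On 18q it rose at 27.4 Mb from 0.652 to 1.18, fell at 35.0 Mb near CELF4, an RNA-binding protein, from 1.05 to 0.476, rose at 39.2 Mb from 0.518 to 0.753 and fell at 49.0 Mb from 0.837 to 0.408. Against the prediction it rose at 51.6 Mb, near MBD2 and POLI, by 0.74 (coverage from 0.415 to 0.604). It fell again at 61.8 Mb, beside SERPINB8, from 0.746 to 0.411. At some of these positions the other lines moved the same way. Coverage at 27.4 Mb also rose in SW480 (0.509 to 0.673), SNU-C1 (0.651 to 0.819) and OE33 (0.499 to 0.536). Across 35.0 Mb it also fell in SNU-C1 (0.701 to 0.609) and OE33 (0.567 to 0.466), and rose in SW480 (0.777 to 0.862). Across 49.0 Mb it also fell in SW480 (0.813 to 0.672) and OE33 (0.610 to 0.473), and SNU-C1 did not change (0.674 to 0.675). At 51.6 Mb coverage rose from 0.656 to 0.810 in SW480, from 0.681 to 0.854 in SNU-C1 and from 0.480 to 0.569 in OE33, at 61.8 Mb it fell from 0.860 to 0.635 in SW480, from 0.726 to 0.672 in SNU-C1 and from 0.599 to 0.455 in OE33, and at 7.8 Mb it rose in SW480 (0.792 to 1.08) and OE33 (0.424 to 0.591). The low segments were also B segments. None of the HCC1954 blocks between 4.2 and 7.8 Mb (18 blocks), 35.2 and 39.2 Mb (19 blocks) or 49.0 and 51.6 Mb (13 blocks) was A. Of the 70 blocks beyond 61.8 Mb, 11 were A, while 34 of 49 were A between 39.2 and 49.0 Mb. With the compartment relation taken out, the edges at 4.2, 27.4, 35.2 and 39.2 Mb were still found in HCC1954, with steps of -0.47, 0.42, -0.80 and 0.56, and the edge at 7.8 Mb was not. The edges at 49.0, 51.6 and 61.8 Mb were replaced by 1 edge at 48.4 Mb (-0.70), from 0.877 to 0.539 of the prediction.

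The HCC1954 edges at 4.0 and 39.2 Mb were found and credited to HCC1954 in all 7 alternatives. The edge at 27.4 Mb was found in 5 of the 7, that at 35.0 Mb in 7 (credited to SW480 in 2), that at 49.0 Mb in 6 (credited to SNU-C1 in 2) and that at 61.8 Mb in 4. An HCC1954 edge at 55.2 Mb recurred in 2 and is not described. 4 of the 6 SW480 edges, at 9.6, 13.2, 24.6 and 32.8 Mb, recurred in at most 2 of the 7, so the values across them are not described further. A SW480 segment from 35.4 to 38.0 Mb, with coverage of 0.904 and 1.90 times the other lines, recurred at its distal edge in 4. At the end of the long arm, HCC1954 had 30 bins without read pairs among the 50 bins from 76 to 78 Mb, against 0 in SW480, 5 in SNU-C1 and 2 in OE33, so SALL3 and NFATC1 have no value below.

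The named genes of the chromosome were then read on this scale, as the median coverage of the 1 Mb around each. For the 5 genes of TGF-beta and BMP signalling, coverage was more than 1.2 times the other lines for 4 in SW480 and 4 in HCC1954, and less than 1/1.2 of the other lines for 3 in SNU-C1 and 5 in OE33. Of all 252 genes of chromosome 18 with a value, 60.3% passed the upper limit in SW480 and 54.8% in HCC1954 (34.5% and 23.5% over autosomes), and 30.6% were under the lower limit in SNU-C1 and 78.6% in OE33 (42.8% and 18.2% over autosomes). In the opposite directions, 1.98% of them were under the lower limit in SW480 and 0 passed the upper one in OE33 (13.9% and 42.3% over autosomes). Such counts thus mostly restate the level of the chromosome. SMAD4 (chr18:48554898-48611415) had 0.831 in SW480 (0.829 and 0.818 in the replicates), 0.724 in HCC1954, 0.681 in SNU-C1 and a lowest value of 0.594 in OE33. All 4 values lay below the autosomal median, and those of SW480 and OE33 were farthest apart. TGIF1, a transcriptional repressor of this pathway on 18p, had 1.41 in SW480, 1.46 in HCC1954, and lower values of 0.817 in SNU-C1 and 0.623 in OE33. Each value was above the 18p median of its line. In HCC1954, TGIF1 lies in the segment before the edge at 4.0 Mb, which had a median coverage of 1.25. SMAD2 was 0.835, 0.692, 0.939 and 0.566 in SW480, SNU-C1, HCC1954 and OE33. SMAD4 ends before the HCC1954 edge at 49.0 Mb, and DCC (chr18:49866567-51062269) begins beyond it. With the compartment relation taken out, that edge lay at 48.4 Mb, and both genes begin beyond it. DCC had 0.415 in HCC1954, 0.463 in OE33, 0.643 in SW480 and 0.675 in SNU-C1, so the 2 colorectal lines were the higher ones here. It was in compartment B in all 4 lines, with values from -1.40 to -1.26 SD.

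The desmosomal cadherins, which hold epithelial cells together, form 1 cluster on 18q, which includes DSC3 at its start and DSG2 at its end. All 7 had more than 1.2 times the coverage of the other lines in HCC1954 (median 1.86 times, coverage 1.5) and all 7 were under 1/1.2 in OE33 (coverage 0.585). Of all 188 genes of 18q with a value, 44.7% were over 1.2 in HCC1954 and 71.8% under 1/1.2 in OE33. Since these genes share the same bins, they are 1 observation and not 7. DSG2 had 1.45 in HCC1954, 0.875 in SNU-C1, 0.798 in SW480 and 0.583 in OE33. The 4 other cadherins, CDH2, CDH7, CDH19 and CDH20, were in compartment B in every line, and 3 of 4 were under 1/1.2 of the other lines in HCC1954 (16.5% of 188 genes of 18q were, and 35.2% over autosomes), while CDH2 was over 1.2. All 4 were also under the limit in OE33 (71.8% of 18q genes), and all 4 were over 1.2 in SNU-C1 (15.4% of 18q genes, and 12.1% over autosomes). CDH7 had 0.411 in HCC1954 and 0.448 in OE33, against 0.645 in SW480 and 0.703 in SNU-C1.

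Among the transcription factors, SETBP1 showed the highest value against the other lines, 2.34 times in HCC1954 (1.31, against 0.558 in SW480, 0.697 in SNU-C1 and 0.533 in OE33). GATA6, a factor of endodermal tissues near the start of 18q, had 1.21 in SW480, 1.05 in HCC1954, 0.908 in OE33 and 0.858 in SNU-C1. It was the gene of this list with the highest OE33 value. Its neighbors in cell division and DNA repair behaved alike: RBBP8, which takes part in DNA end resection, had 1.21, 1.09, 0.978 and 0.806 in SW480, HCC1954, OE33 and SNU-C1. All 4 genes of that list were over 1.2 times the other lines in SW480, as were 46.8% of 18q genes. Of the 8 genes listed on 18p, all were over 1.2 times the other lines in SW480 (median 1.81), 7 were in HCC1954, and all 8 were under 1/1.2 in OE33 (median 0.467). The whole arm did the same, with 64 of 64 genes of 18p over the limit in SW480, 54 in HCC1954 and 63 under it in OE33. TYMS, the thymidylate synthase gene and the target of fluorouracil, had 1.02 in HCC1954 and 1.01 in SW480, against 0.537 in SNU-C1 and 0.433 in OE33. The 4 genes of apoptosis and NF-kB signalling differed less: BCL2, an inhibitor of apoptosis, had 0.870 in SW480, 0.724 in HCC1954, 0.711 in SNU-C1 and no more than 0.586 in OE33.

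Contacts between the arms were compared next. Each 200-kb block pair was expressed as observed over expected (O/E), where the expected value is the mean of all pairs that span that distance in the map, so 1 is the typical frequency at that distance. Over the 19880 block pairs with 1 block on each arm, the mean O/E was 0.444 in SW480 (0.440 and 0.445 in the replicates; 63396 read pairs), 0.488 in OE33 (26736), 0.844 in HCC1954 (48466) and 1.30 in SNU-C1 (58028). The exact Poisson 95% intervals of these counts, which cover counting error only, were 62904 to 63891, 26417 to 27058, 48036 to 48899 and 57557 to 58502 in the same order. Among 18 chromosomes with 2 arms, chromosome 18 had the lowest value in SW480 and in OE33, the 12th in HCC1954 and the 16th in SNU-C1. The medians of the other chromosomes were 0.818, 0.889, 0.751 and 1.06 in these lines.

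Without the correction, which leaves the coverage of the arms in the values, the means were 0.465 in SW480, 0.240 in OE33, 0.577 in HCC1954 and 0.719 in SNU-C1. When only chromosome 18 served for the expected value, which sets each map on its own level for this chromosome, they were 0.592, 0.498, 0.783 and 0.917. Chromosome 18 was still the lowest of 18 chromosomes in SW480 and OE33 without correction, and was the 4th lowest in HCC1954 and the 6th in SNU-C1. SNU-C1 had the highest mean of the 4 lines and HCC1954 the next in each case, while the order of SW480 and OE33 turned.

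**Figure D2:**
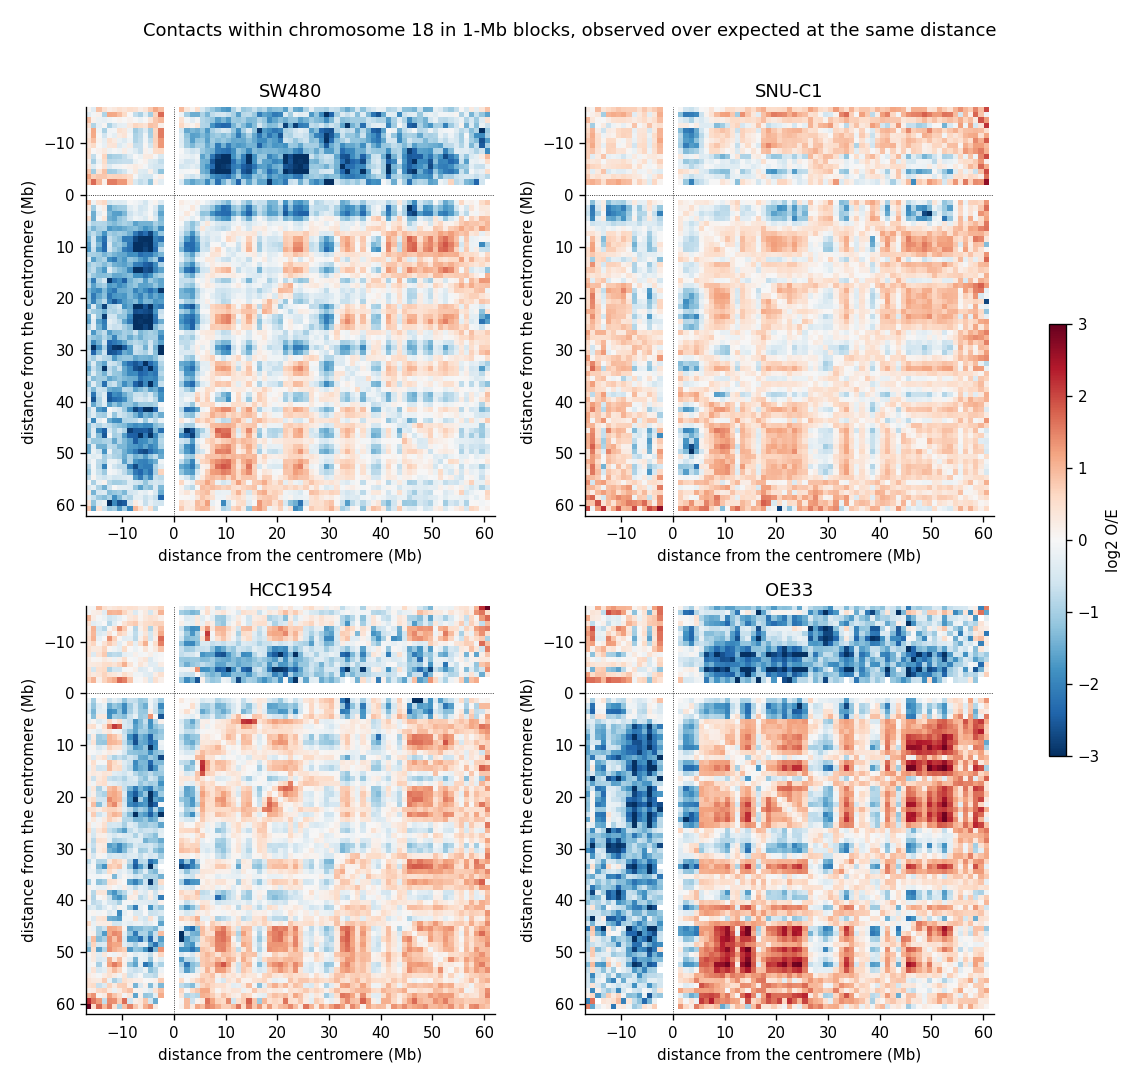
Contacts within chromosome 18 in 1-Mb blocks as log2 O/E (red above 0, blue below 0) for the 4 lines; both axes give distance from the centromere in Mb, and dotted lines mark the centromere. The squares that join 18p and 18q are blue in SW480 and OE33 (mean O/E 0.444 and 0.488) and not in SNU-C1 (1.30).

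The place where the separation falls was examined by splitting 18q at 22.2 Mb. In SW480, 18p contacted the start of 18q with a mean O/E of 0.739 (0.738 and 0.736 in the replicates). The start of 18q contacted the rest of its own arm with 0.575 (0.572 and 0.575). SW480 was the only line of the 4 in which the start of 18q was linked more strongly to 18p than to the rest of 18q. The corresponding values were 0.621 and 0.902 in SNU-C1, 0.645 and 0.856 in HCC1954, and 0.737 and 0.781 in OE33. Without iterative correction they were 1.08 and 0.709 in SW480, 0.410 and 0.617 in SNU-C1, 0.691 and 0.760 in HCC1954, and 0.628 and 0.611 in OE33, so OE33 changed order. 18p with the remainder of 18q gave 0.424 in SW480, 0.472 in OE33, 0.858 in HCC1954 and 1.34 in SNU-C1. The order in SW480 was the same in both replicates. Contacts of 18p with the start of 18q were themselves below those within 18p (1.13 in SW480), no other split of 18q was compared, and the relation to copy number was not tested.

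**Figure D3:**
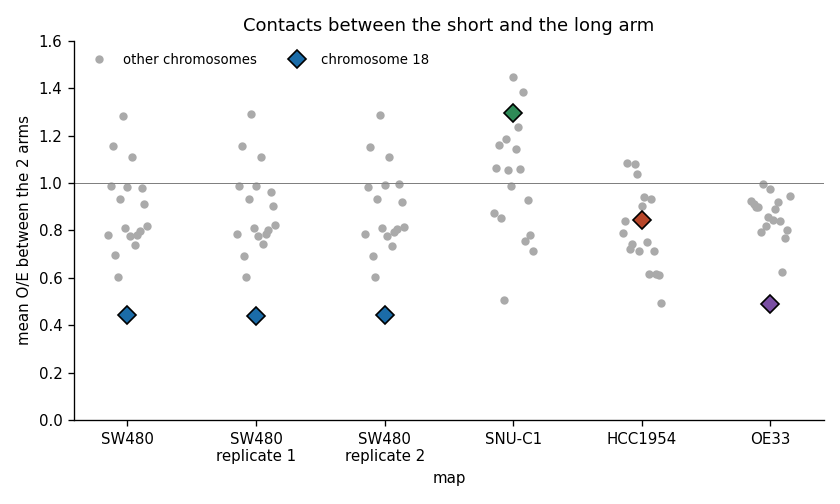
Mean O/E of 200-kb block pairs that join the short and long arm, for chromosome 18 (diamonds) and the other 17 chromosomes with 2 arms (grey points) in each map. Chromosome 18 lies below all the others in SW480, in both of its replicates and in OE33.

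Compartments were called from the principal component of the O/E correlation matrix of each arm in 200-kb blocks, scaled to an SD of 1, with A above 0 and B below. A blocks made up 46.0% of the 354 blocks in SW480 (46.3% and 45.5% in the replicates), 41.5% in HCC1954, 38.4% in OE33 and 38.1% in SNU-C1. Chromosome 18 had the lowest share of 22 autosomes in OE33, the 2nd lowest in SNU-C1 and HCC1954, and the 7th lowest in SW480. 107 blocks were A in all lines, 160 were B in all lines and 87 were mixed. As a description across these blocks, the values of the SW480 replicates correlated with r = 0.994, with 9 blocks of opposite sign, and those of pairs of lines with 0.795 (SW480 and HCC1954) to 0.903 (HCC1954 and OE33). Blocks A in all lines held 7.17 protein-coding starts per Mb and had 42.3% GC, and blocks B in all lines held 1.25 and had 37.4%.

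A block was called line-specific where its sign was opposite to all other lines and it differed from each by more than 0.229 SD, the 95th percentile of the difference between SW480 replicates. SW480 had 29 such blocks (8.19% of 354, against 5.16% over all autosomes), HCC1954 had 18 (5.08%, against 5.55%), SNU-C1 had 13 (3.67%, against 4.6%) and OE33 had 6 (1.69%, against 2.37%). With these settings the SW480 share alone was above its autosomal background, and 25 of its 29 blocks were A in SW480 alone. The counts per line depended on the processing: with the component taken over the whole chromosome SNU-C1 had 26 blocks and SW480 21, and without iterative correction HCC1954 had 29 and SW480 27.

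The longest SW480 stretch covered 8 blocks from 35.4 to 37 Mb and 4 from 37.2 to 38.0 Mb, a region with no protein-coding gene in these blocks. Its mean value was 0.44 SD in the first run (0.39 and 0.42 in the replicates), against -1.31 in SNU-C1, and HCC1954 and OE33 had -1.28 and -1.26. In the second run it was 0.68 (0.76 and 0.54), against -1.26, -1.29 and -1.26. A gene desert that was deep B elsewhere was thus A in SW480, over the same interval as its segment of higher coverage against the other lines (35.4 to 38.0 Mb). That segment was not found against the prediction, and its reference includes HCC1954, which was low from 35.2 to 39.2 Mb. A further run from 23 to 23.6 Mb reaches into SS18, a chromatin remodelling subunit whose start lies in the next block, A in SW480 and SNU-C1 (the run had 0.43, against -0.45, -0.91 and -1.15 in SNU-C1, HCC1954 and OE33). In the other direction, 52.2 to 52.6 Mb, with RAB27B, a GTPase of vesicle secretion, was B in SW480 (-0.63) and A in SNU-C1 (0.92), HCC1954 (0.53) and OE33 (0.91).

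In HCC1954, 6 blocks from 42.0 to 43.2 Mb, which hold SETBP1 and the urea transporter gene SLC14A2, were A (0.67), against -0.97 in SW480, -1.02 in SNU-C1 and -0.90 in OE33. These blocks lie within the HCC1954 segment of higher coverage from 39.2 to 49.0 Mb. The 3 blocks from 54.6 to 55.2 Mb, with ONECUT2, a transcription factor, were B (-0.25), against 0.30, 0.95 and 0.24. SNU-C1 had 4 blocks from 56.8 to 57.6 Mb in B (-0.47), against 0.72 in SW480, 0.35 in HCC1954 and 0.51 in OE33. They include LMAN1, a cargo receptor of the secretory pathway, and reach PMAIP1, which encodes the pro-apoptotic protein NOXA. SNU-C1 also had 2 blocks from 53.0 to 53.4 Mb, within TCF4, in A (0.39), against -1.16, -1.15 and -0.48. TCF4 is a basic helix-loop-helix transcription factor. OE33 had no run longer than 2 blocks.

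Of the 354 blocks, 10 (2.82%, against 4.04% over autosomes) were A in both colorectal lines and B in the other 2, or the reverse. A split by tissue of origin was therefore no more common on chromosome 18 than elsewhere. The SERPINB cluster at about 61 Mb, a family of serine protease inhibitors that includes the squamous epithelial antigens SERPINB3 and SERPINB4, was one of them. Of its 10 genes, 1 (SERPINB5, which encodes maspin) was in A in SW480 and in SNU-C1, and 9 were in A in HCC1954 and in OE33. The block at 61.2 Mb had values of -1.11 in SW480 and -1.18 in SNU-C1, against 1.07 in HCC1954 and 0.53 in OE33. The block at 61.4 Mb had -0.87 and -1.11, against 0.82 and 0.60. The 10 genes share few blocks and are not independent. ZNF521, a zinc finger factor, lay in blocks at 22.6 and 22.8 Mb that were A in both colorectal lines (0.04 and 0.27 in SW480, 0.38 and 0.09 in SNU-C1) and B in HCC1954 (-0.87 and -0.82) and OE33 (-1.26 and -1.15). At 22.6 Mb the A call of SW480 is weak, since its replicates differed in sign, as given above.

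**Figure D4:**
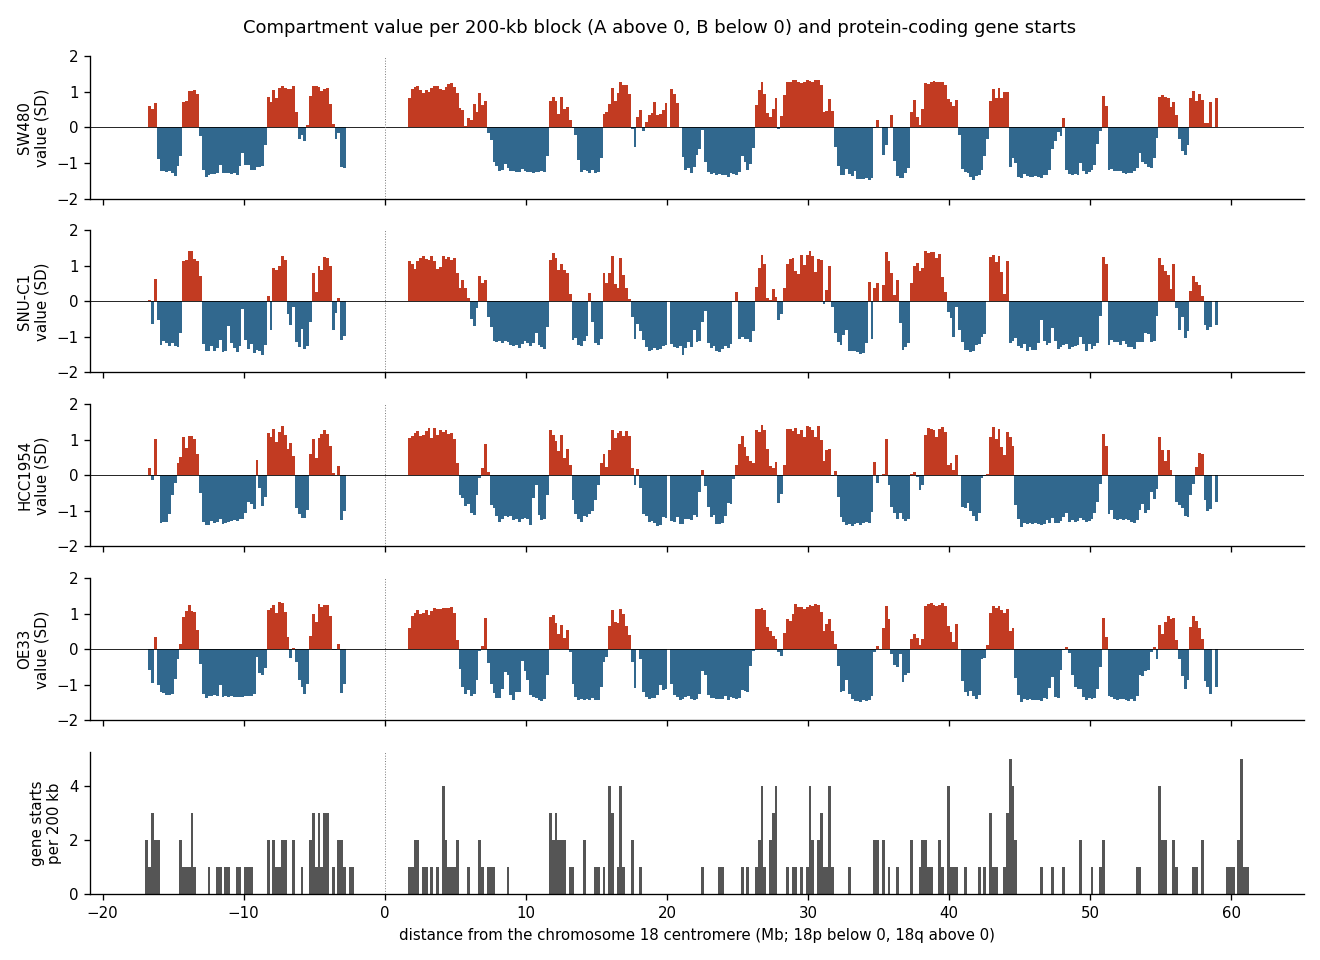
Compartment value of each 200-kb block in SD (A above 0, red; B below 0, blue) along chromosome 18 in the 4 lines, against distance from the centromere in Mb, with the number of protein-coding gene starts per block below. Blocks with many gene starts are mostly red in all 4 lines, and SW480 has a red stretch on 18q that is blue in the others (35.4 to 38.0 Mb of the chromosome).

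Insulation boundaries were called as minima of the log2 contact sum in a 1-Mb square that slides along the diagonal. SW480 had 69 boundaries (69 in each replicate), SNU-C1 70, HCC1954 67 and OE33 56, and the replicates of SW480 had 67 of 69 (97.1%) in common within 2 bins. Of SW480's boundaries, 82.6% were found in SNU-C1, as many in HCC1954, and 69.6% in OE33. The 4 lines together had 97 boundaries, of which 44 (45.4%, against 44.3% over autosomes) were found in all. 7 were found only in SW480 (7.22%, against 4.56%), 11 only in SNU-C1 (11.3%, against 6.95%), 10 only in HCC1954 (10.3%, against 6.6%) and 4 only in OE33 (4.12%, against 6.19%). Some of those counted in 1 line lay within 2 bins of a boundary of another line, as described below.

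The strongest shared boundary, at 28.48 Mb, lies before the desmosomal cadherin genes and had a strength of 1.34 (SW480), 1.78 (SNU-C1), 1.24 (HCC1954) and 1.85 (OE33). In that order of lines, the next, at 54.28 Mb between TXNL1 and WDR7, had 1.52, 1.72, 1.68 and 1.23. Another, at 61.64 Mb, ends the SERPINB cluster at SERPINB10, HMSD and SERPINB8 and had 1.14, 0.744, 1.88 and 1.86. It was thus stronger in HCC1954 and OE33, where the cluster before it was A, than in the 2 colorectal lines, where it was B. It also lies just before the HCC1954 coverage edge at 61.8 Mb. The boundary at 4.0 Mb in DLGAP1 (1.24, 1.5, 1.12 and 1.2) coincides with the HCC1954 edge there. Coverage fell across this position in the other lines too (SW480 from 1.28 to 0.787, SNU-C1 from 0.786 to 0.615 and OE33 from 0.593 to 0.438).

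Of the boundaries of fewer lines, the one at 38.0 Mb stood out: its strength was 1.36 in SW480 and 0.184 in SNU-C1, and HCC1954 and OE33 had none. It marks the distal end of the SW480 stretch of A chromatin. Another, at 2.6 Mb at the end of NDC80 and before SMCHD1 (a repressor of the inactive X chromosome), had 1.33 in SW480, 1.42 in SNU-C1 and 1.12 in OE33. The nearest boundary of HCC1954 (0.937) lay at 2.68 Mb. This boundary was counted as found in HCC1954 only, although it lay within 2 bins. The same held for the HCC1954 boundary at 71.84 Mb, beside that at 71.76 Mb (SW480, SNU-C1 and OE33). It also held for the SNU-C1 boundary at 56.0 Mb, beside that at 56.08 Mb (SW480 and HCC1954). The counts for 1 line include such boundaries, so part of them may be a shift of a few bins. Of the CTCF motif matches shown above, only that at 61.64 Mb lay in its boundary bin. A match in the bin itself was present in 10 of the 44 boundary bins shared by all lines (22.7%), in 4 of 32 found in 1 line (12.5%) and in 11.2% of other scored bins. The shared boundary bins held 7.95 gene starts per Mb against 2.34 in those of 1 line, so gene content moved with this difference and its part was not tested.

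**Figure D5:**
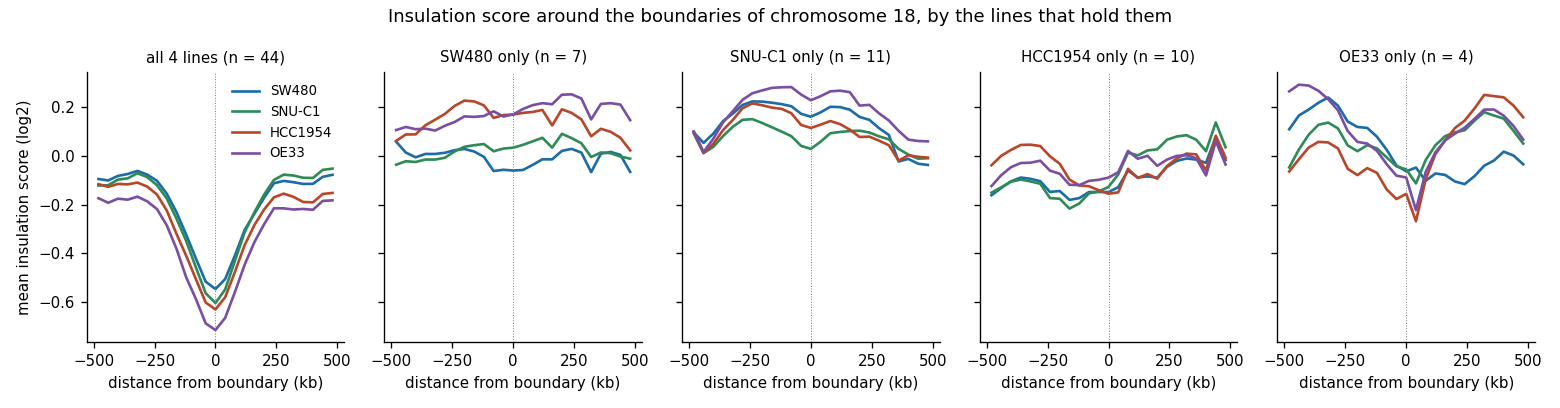
Mean insulation score (log2, relative to the chromosome mean) against distance from the boundary in kb, for boundaries found in all 4 lines (n = 44) and in 1 line only (n = 7, 11, 10 and 4), 1 curve per line. At shared boundaries all 4 lines dip to between -0.55 and -0.71, and at boundaries of 1 line the dips are shallow. At 0 kb, SW480 and SNU-C1 had the lowest score at their own boundaries. At boundaries of HCC1954 only, SW480 was close to HCC1954 (-0.148 against -0.155). At boundaries of OE33 only, HCC1954 was lower than OE33 (-0.155 against -0.088).

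Finally, block pairs at least 2 Mb apart were searched for contacts of 1 line only, taking pairs whose O/E reached 4 and was 4 times or more the highest of the remaining lines, after 0.5 was added to each. Of 59404 block pairs on chromosome 18, SW480 had 1 (0.00168%, against 0.0453% over all chromosomes) and SNU-C1 149 (0.251%, against 0.205%). HCC1954 had 50 (0.0842%, against 0.244%) and OE33 63 (0.106%, against 0.109%). With these settings the SNU-C1 share alone was above its background. When only replicate 2 or 1 of SW480 was used, SW480 had 3 and 6 in place of 1. The number depended on the expected value and on depth. With the expected value from chromosome 18 alone, SNU-C1 had 10 and OE33 had 30, and with at least 10 read pairs per block pair SNU-C1 had 9, HCC1954 19 and OE33 44. Of the SNU-C1 pairs 147 and of the HCC1954 pairs 46 joined the arms, against 6 in OE33, while 33.5% of all block pairs do. Pairs farther apart join the arms more often, and that share covers all distances from 2 Mb. The called pairs, for which no share at like distance was computed, lay at a median distance of 56.2 Mb in SNU-C1, 45.3 Mb in HCC1954 and 37.6 Mb in OE33. Most joined B with B: 112 of 149 in SNU-C1, 44 of 50 in HCC1954 and 56 of 63 in OE33. Of all block pairs in these maps, 37.8%, 33.7% and 37.5% did.

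In HCC1954, some of these pairs lay side by side. Blocks from 5.0 to 6.4 Mb on 18p, in the low segment that follows DLGAP1 and includes L3MBTL4, contacted blocks at 23 to 23.4 Mb on 18q with an O/E of up to 10.5 (47 read pairs). Over the box that bounds these pairs (5.0 to 6.6 Mb with 23 to 23.6 Mb), which the HCC1954 values themselves chose, the mean O/E was 6.63 in HCC1954 (664 read pairs, exact Poisson 95% interval 614 to 716) and 3.28 without iterative correction. It was 0.363 in SW480 (0.39 and 0.334 in the replicates), 0.538 in OE33 and 0.969 in SNU-C1 (0.348, 0.207 and 0.503 without correction). A second site joined 12.2 Mb with 21.8 Mb (O/E 9.51, 103 read pairs). Its densest 40-kb bin pair held CIDEA, a lipid droplet protein, and OSBPL1A, an oxysterol-binding protein, with 17 read pairs in HCC1954, 2 in OE33 and 0 in SW480 and SNU-C1. Another joined 22 with 30.4 Mb (O/E 5.83, 79 read pairs). In OE33, most of those with at least 10 read pairs joined the proximal to the distal part of 18q, with at most 21 read pairs each (31.2 with 63.6 Mb, O/E 13.8). Without iterative correction no OE33 pair met the rule, and SNU-C1 had 4 and HCC1954 9.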

How the data were processed

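In situ Hi-C maps of 4 lines were analyzed, each as 40-kb bin pairs of hg19. According to the study's methods, the authors aligned reads with BWA-MEM, removed duplicates with Picard (versions not given in the sources used here) and deposited contact signal after iterative correction. Each corrected value is a whole number of read pairs times 2 bin factors. These factors were fitted from pairs at least 5 Mb apart (60 iterations), and 100% of the chromosome 18 values up to 20.5 read pairs came out whole within 0.02. Blocks of 200 kb needed 3 usable bins of 5. Segments came from penalized least squares (penalty 20, at least 5 blocks, step of at least 0.2). Insulation followed the study's window (1 Mb, 200-kb delta, strength of at least 0.1). Scripts were tested on simulated data. Python 3.11.15, NumPy 2.4.6 and SciPy 1.17.1 were used. Genes were named by lists, by segment edges and by called blocks, boundaries and pairs. Members, lists and rules were chosen with earlier results of these data known. The study calls its Hi-C replicates biological, but whether those of SW480 are separate cultures is not stated in the sources used here. The precision of each value is limited by the read pairs given beside it, and genes are those of the GENCODE annotation lifted to this build.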

Additional observations from a re-analysis of the deposited data

Results flagged for a closer look

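The log2 coverage of 18q over 18p differed by -0.68 between SW480 and SNU-C1 (SW480 minus SNU-C1), both colon cancer lines. It was below 0 in both SW480 replicates and above 0 in the SNU-C1 map, and the difference was not tested because SNU-C1 has 1 map.

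The pairs between chromosomes 1 and 18, which enter the comparisons above only where pairs with other chromosomes were counted in the coverage, and which the SW480 maps do not hold, gave a signal in HCC1954. The 1-Mb blocks at 71 to 72 Mb of chromosome 1 and 23 to 24 Mb of chromosome 18 had an O/E of 98.6 in HCC1954 (393 read pairs, exact Poisson 95% interval 355 to 434), with 5 read pairs in SNU-C1 and 6 in OE33. The chromosome 18 block is the one that also contacted 5.0 to 6.4 Mb on 18p in HCC1954. A further block pair, at 95 to 96 Mb and 33 to 34 Mb, had an O/E of 63.3 (717 read pairs, against 4 and 11). It contains the 40-kb bin pair with the most read pairs between these chromosomes, which joins SLC44A3, a choline transporter-like gene, to GALNT1, a glycosyltransferase gene, with 73 read pairs in HCC1954, 1 in OE33 and 0 in SNU-C1. The highest O/E in the other 2 lines was 4.18 in SNU-C1 and 2.35 in OE33.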

How the results depend on the processing

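No paired analysis was possible because 3 of the 4 lines have 1 map. Depth limits single block pairs most, since many hold fewer than 10 read pairs, and OE33 had the fewest read pairs on this chromosome. The alternatives that count pairs with other chromosomes, compare blocks of 1 compartment, take out the compartment relation or split 18q were chosen after seeing the data. The cause of a value that moved was not tested.

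In the arm ratio relative to the other lines, the 2 lower lines are always negative and the 2 higher always positive. HCC1954 and OE33 there hold the same difference with opposite signs. With this limit, the sign of the arm ratio (log2 of 18q over 18p, relative to the other lines or to the prediction) was the same in each line under every alternative. In the order SW480, SNU-C1, HCC1954, OE33 it was -0.48, 0.51, -0.23 and 0.23 with pairs up to 2 Mb apart; -0.57, 0.51, -0.35 and 0.35 within the same arm; -0.61, 0.50, -0.39 and 0.39 with a minimum coverage of 0.5; -0.56, 0.50, -0.43 and 0.43 with means; -0.38, 0.22, -0.28 and 0.23 against the prediction; -0.30, 0.50, -0.19 and 0.19 with pairs of other chromosomes counted; -0.38, 0.17, -0.32 and 0.019 with these against the prediction; -0.66, 0.34, -0.33 and 0.33 in A blocks; and -0.53, 0.44, -0.36 and 0.36 in B blocks. The SW480 maps hold no pairs with other chromosomes, so SW480 kept its coverage within chromosomes in the settings that count them. Its -0.38 was therefore the same calculation in both settings against the prediction and could not change. Its -0.30 set coverage within chromosomes against coverage with other chromosomes in the other lines. Without 1 SW480 replicate the arm ratio ranged from -0.56 to -0.55 in SW480. Edges numbered 9 with a penalty 2 times as high, 9 with 400-kb blocks and 7 with the compartment relation taken out. In the same order of lines, contacts between the arms were 0.592, 0.917, 0.783 and 0.498 with the expected value of chromosome 18, 0.465, 0.719, 0.577 and 0.240 without correction, and 0.384, 1.31, 0.819 and 0.427 at 20 to 40 Mb; without 1 SW480 replicate they ranged from 0.440 to 0.445 in SW480. Line-specific compartment blocks numbered 32 of 177 with 400-kb blocks (18.1%), against 66 of 354 with 200-kb blocks (18.6%). Line-specific block pairs, 263 in all, numbered 91 with the expected value of chromosome 18, 4 with 400-kb blocks, 73 with at least 10 read pairs and 14 without correction. Shared boundaries stayed within 1.5 times of 44 under each alternative.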
